A study of Mus musculus with 8 samples.

Results

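Whole mouse embryos at E11.5 (days after conception) that carried the low-expression Ott1 allele on both chromosomes were compared with embryos that carried it on 1. Ott1 is the earlier name of Rbm15. The comparison takes 6 of the 8 arrays of the series, chosen by genotype alone: homozygous embryos 2, 7 and 16 against heterozygous embryos 3, 10 and 15. Wild-type embryos 11 and 13 entered the fit for the estimate of the spread and are given as a further reference. All embryos came from matings of carriers, were genotyped and snap-frozen, and gave total RNA of the entire embryo, 1 embryo per array. The sources used here do not give the strain, the construction of the allele, the litters or the sex of the embryos. The balanced contrast of 3 and 3 asks what a second low-expression copy adds to the first.

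Rbm15 belongs to the Spen family of RNA-binding proteins. Such proteins carry RNA recognition motifs and a SPOC domain, which binds partner proteins. Rbm15 and its paralog Rbm15b are known to bring the m6A methyltransferase complex to its target RNAs, and Rbm15 has been tied to splicing, nuclear mRNA export, blood cell differentiation and placental vessel growth. In a whole embryo every tissue contributes RNA, so that fewer cells of a type and less RNA per cell cannot be told apart in any value below.

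A CodeLink array carries oligonucleotide probes for transcripts and is read in 1 colour. Of 34967 gene probes, 23388 could be tested, and 11598 of these had a gene symbol, for 11003 genes. Values are log2 of the normalized intensity, a scale on which 1 unit is a 2-fold step and which cannot be used to rank different probes against each other. Median intensities before normalization were 57.63, 48.28 and 48.66 in heterozygous embryos 3, 10 and 15, while embryos 2, 7 and 16 of the homozygous group had 61.45, 61.52 and 87.93. Every homozygous array was brighter than every heterozygous one, so brightness and genotype cannot be told apart. Embryo 16 also had the most probes marked out by the scanner software, 1634 against 206 to 616 on the other arrays. Its values correlated with those of the other arrays at 0.956 to 0.968, against 0.973 to 0.990 among the other 7. Homozygous and heterozygous arrays correlated with each other at 0.960 to 0.987, a range that covers that within the homozygous group (0.965 to 0.987) and within the heterozygous group (0.979 to 0.982). The mean of the Y-linked probes was 5.47, 6.43 and 5.11 in heterozygous embryos 3, 10 and 15 and 6.35, 6.57 and 5.40 in homozygous embryos 2, 7 and 16. With that mean as a covariate the same 5 probes described below passed the test.

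Of the gene lists described below, glycolytic enzymes and targets of the hypoxia response had the highest median differences toward homozygous embryos, although none of their members passed the test. The list of Xist and Y-linked genes, left out of this rank, had a higher median of 0.92 over 6 measured genes. The lists were chosen with earlier results of these data known, so this rank is a description and not a test. Hypoxia-inducible factors are heterodimeric transcription factors that are held down by oxygen-dependent prolyl hydroxylases, and they bind DNA at the core letters ACGTG or GCGTG. The 250 bases before the RefSeq start (GRCm38.p6) are shown for 5 members of those groups and for Trnau1ap, whose probe fell, so that the values can be read beside the sequence. Capitals mark every ACGTG and GCGTG on either strand, so CACGT and CACGC are the same letters on the other strand. Bases run 5′ to 3′ in the direction of the gene.
Egln1, chr8:124949255-124949504, minus strand: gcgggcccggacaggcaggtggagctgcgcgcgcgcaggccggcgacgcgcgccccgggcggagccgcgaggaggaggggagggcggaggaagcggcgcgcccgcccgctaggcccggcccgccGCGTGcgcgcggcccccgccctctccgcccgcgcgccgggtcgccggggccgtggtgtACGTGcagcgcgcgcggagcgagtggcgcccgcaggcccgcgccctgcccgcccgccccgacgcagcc
Bnip3, chr7:138909507-138909756, minus strand: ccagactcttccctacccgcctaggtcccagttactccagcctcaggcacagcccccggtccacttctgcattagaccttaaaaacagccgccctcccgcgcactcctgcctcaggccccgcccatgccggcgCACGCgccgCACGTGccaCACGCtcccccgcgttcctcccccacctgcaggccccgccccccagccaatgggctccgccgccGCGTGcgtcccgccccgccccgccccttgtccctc
Hk2, chr6:82774455-82774704, minus strand: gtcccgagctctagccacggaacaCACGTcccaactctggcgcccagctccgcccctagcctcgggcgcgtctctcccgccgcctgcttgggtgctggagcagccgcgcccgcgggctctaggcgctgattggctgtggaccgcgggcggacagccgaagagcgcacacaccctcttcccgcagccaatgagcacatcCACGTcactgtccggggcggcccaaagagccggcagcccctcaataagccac
Slc2a1, chr4:119108495-119108744, plus strand: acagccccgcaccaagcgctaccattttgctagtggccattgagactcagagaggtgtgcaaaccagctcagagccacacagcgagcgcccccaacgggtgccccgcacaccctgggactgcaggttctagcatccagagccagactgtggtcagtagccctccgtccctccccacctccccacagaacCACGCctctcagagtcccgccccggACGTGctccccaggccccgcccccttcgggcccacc
Vegfa, chr17:46032378-46032627, minus strand: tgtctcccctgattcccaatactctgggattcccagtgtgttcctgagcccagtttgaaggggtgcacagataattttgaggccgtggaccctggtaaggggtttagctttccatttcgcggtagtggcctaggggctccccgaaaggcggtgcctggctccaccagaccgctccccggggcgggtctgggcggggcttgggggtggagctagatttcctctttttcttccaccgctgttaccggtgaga
Trnau1ap, chr4:132329539-132329788, minus strand: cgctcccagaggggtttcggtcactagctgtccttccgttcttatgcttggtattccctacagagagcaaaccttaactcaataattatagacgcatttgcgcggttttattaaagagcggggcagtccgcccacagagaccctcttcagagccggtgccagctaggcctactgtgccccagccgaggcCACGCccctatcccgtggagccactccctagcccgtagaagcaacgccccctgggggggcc
The promoter of Bnip3 held 5 matches, in which CACGTG counts on both strands, those of Egln1, Hk2 and Slc2a1 held 2 each, that of Trnau1ap held 1 and that of Vegfa held 0 in this window. Either core was found in 14 of the 18 hypoxia targets with a promoter in the table (77.8%) and in 13 of 18 glycolysis genes (72.2%). The share was 52.9% of the 8771 promoters of tested genes, 38.6% of all 27025 promoters of the table and 55.6% of 36 oxidative phosphorylation genes. ACGTG alone was in 55.6% of hypoxia targets and 44.4% of glycolysis genes, against 20.6% of tested genes. For GCGTG alone the shares were 61.1% and 38.9%, against 42.1%. Hypoxia targets were listed as targets of factors that bind these letters, so their share says nothing about the array values. A match is a description of the letters and does not show that a factor binds there.

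Against the heterozygous embryos, 5 probes fell in homozygous embryos and 0 rose at a limma adjusted p under 0.05. That is 0.0214% of the tested probes. An unadjusted p under 0.05 was found for 2721 probes (11.6%), 885 with higher (3.78%) and 1836 with lower values (7.85%). Of the 21935 probes measured in all 6 embryos, the homozygous values lay above every heterozygous value in 1341 (6.11%) and below every one in 2747 (12.5%). The difference was positive in 40% and negative in 60% of tested probes, with a median of -0.06 and quartiles of -0.23 and 0.11. That median was -0.20 when arrays were scaled by their medians and -0.23 in the deposited value table, and the non-overlapping probes then split into 10.6% and 8.1% higher, against 32.8% here and 47.0% under cyclic loess. Every difference below is therefore best read against the median. A difference of over 2-fold was seen in 205 probes toward higher and in 174 toward lower values.

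**Figure D1:**
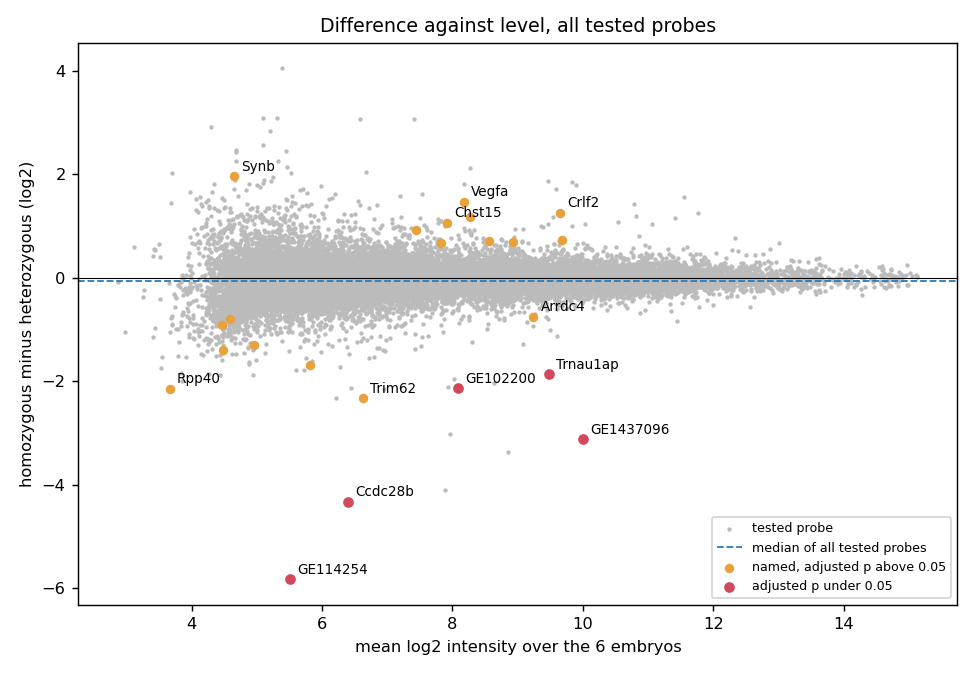
Homozygous minus heterozygous difference (log2) against the mean log2 intensity over the 6 embryos for each tested probe. The 5 probes past the adjusted threshold (red) all lie below the line of no difference, the named genes that did not pass are orange, and the dashed line is the median of all tested probes at -0.06.

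Both named genes among the 5 lie on chromosome 4. Ccdc28b encodes a coiled-coil protein known as a modifier of Bardet-Biedl syndrome, a disorder of cilia. Its log2 level was 8.44, 8.51 and 8.76 in heterozygous embryos 3, 10 and 15 and 4.78, 4.26 and 3.68 in homozygous embryos 2, 7 and 16. All 3 homozygous values were far below the lowest heterozygous one, and the wild-type values, 8.58 and 8.56, lay among the heterozygous ones. It fell by 4.33 (SE 0.26, limma adjusted p = 0.0024), from a mean of 8.57 ± 0.17 (SD, n = 3) to 4.24 ± 0.55 (n = 3). This probe exceeded background in just 1 homozygous embryo of 3, so the level left there is close to what the array can read. Trnau1ap encodes a protein that binds the selenocysteine tRNA, which puts selenium into selenoproteins. It was at 10.39, 10.65 and 10.18 in the heterozygous embryos and at 8.51, 8.58 and 8.54 in the homozygous ones. The 3 homozygous values lay within a narrow band, 3.64-fold below the heterozygous mean. It fell by 1.86 (SE 0.14, limma adjusted p = 0.00867), with all 3 homozygous arrays above background and wild-type values of 10.49 and 10.31. The call was lost without heterozygous embryo 3 (adjusted p = 0.0806) and without homozygous embryo 2 (0.0521), at about the same difference (-1.88 and -1.85), and with no filter on dim probes (0.0538).

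Trim62, the gene of a RING-type ubiquitin ligase on the same chromosome, had the smallest p among named genes with lower values that did not pass. Its level was 7.93, 7.61 and 7.84 in heterozygous and 5.58, 6.02 and 4.81 in homozygous embryos, with wild-type values of 7.75 and 7.89. The groups did not overlap, and the difference was -2.33 (SE 0.28, adjusted p = 0.106), or 5.02-fold lower. It passed in 9 of the 23 alternatives run, among them median scaling (0.0055) and cyclic loess (0.00691). Between Trim62 and Trnau1ap on chromosome 4, 39 other genes were tested. None of these passed. Their median was -0.08, close to that of all probes, with 6 at an unadjusted p under 0.05 (11.6% of all probes), 3 with non-overlapping higher values (6.11% of all probes) and 6 with non-overlapping lower values (12.5% of all probes). They ranged from -0.57 for the cartilage matrix gene Matn1 to 1.14 for Iqcc, 2 genes named after their values were seen as the ends of the range.

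The other 3 probes past the threshold have no gene symbol. GE114254 was at 8.38, 8.57 and 8.31 in heterozygous embryos and at 3.44, 2.17 and 2.17 in homozygous embryos, where it was not well above background on any array and where 2.17 is the floor of the scale. The homozygous level was at least 20.7-fold lower (limma adjusted p = 0.0024), the bound being set against the lowest signal that counts as above background on those arrays. The wild-type values, 8.45 and 8.43, matched the heterozygous ones. GE1437096 was at 11.51, 11.49 and 11.68 in heterozygous and 8.87, 8.63 and 7.80 in homozygous embryos. It fell by 3.13 (SE 0.26, adjusted p = 0.0139) and stayed above background in all 3. Its call was lost without heterozygous embryo 3 (0.114), 10 (0.0665) or 15 (0.16), without wild-type embryo 11 (0.0755) or 13 (0.0606), and with no filter on dim probes (0.0766). GE102200 was at 9.25, 8.94 and 9.25 against 6.97, 7.12 and 6.98, and fell by 2.13 (SE 0.13, adjusted p = 0.0024). GE102200 passed in all 23 alternatives, and Ccdc28b and GE114254 in all 22 in which they could be tested.

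**Figure D2:**
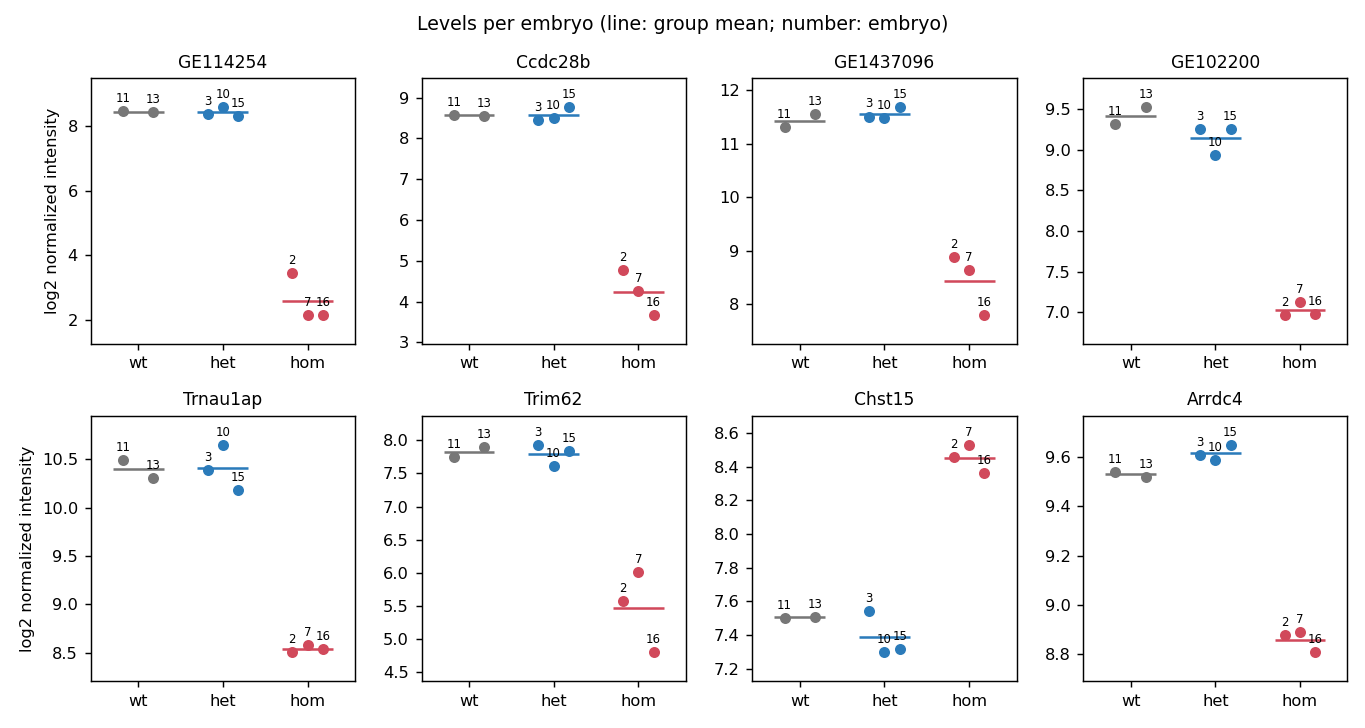
Log2 normalized intensity in each embryo for the 5 probes that passed and for Trim62, Chst15 and Arrdc4, which did not. Each point is 1 embryo with its number, the line is the group mean, and the vertical scale differs between panels. In all 8 panels the 3 homozygous embryos lie apart from the 3 heterozygous ones, and the wild-type embryos lie near the heterozygous ones.

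Rbm15 itself is not analysed here, since no probe was matched to it by name. Whether 1 of the 20204 unnamed probes measures it is not known. Its paralog Rbm15b was at 10.56, 10.67 and 10.65 in heterozygous and 10.87, 10.82 and 10.93 in homozygous embryos. The groups did not overlap, but the difference of 0.24 (SE 0.10, adjusted p = 0.414) did not pass, and it turned to -0.04 once arrays were scaled by their medians and to -0.08 with the deposited values, where it still lay above the median of all probes. Among the 20 genes that flank Rbm15 on chromosome 3, 13 were measured and none passed, 11 with a negative difference and a median of -0.14. The potassium channel gene Kcna3 had a difference of -0.59 (SE 0.35, adjusted p = 0.517).

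Toward higher values, the smallest p belonged to Chst15, which encodes a sulfotransferase of chondroitin sulfate chains. It was at 7.54, 7.30 and 7.32 in heterozygous and 8.46, 8.53 and 8.36 in homozygous embryos. The groups stood well apart, and the homozygous mean was 2.10-fold higher (difference 1.07, SE 0.11), yet the limma adjusted p of 0.0605 missed the threshold. It passed in 6 of 23 alternatives, with cyclic loess (0.0359) among them. Of 13 measured genes of chondroitin sulfate synthesis none passed, the median was 0.03, and 3 of the 12 measured in all embryos had non-overlapping higher values, against 6.11% of all probes. Chst15 itself, already named for its small p, is 1 of these 3, so the count is not separate from that gene. Also among them were the xylosyltransferase Xylt2 (0.47, SE 0.17), which starts the chains, and Chst12 (0.35, SE 0.14), another sulfotransferase.

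The 10 named genes with the smallest p toward higher values also held 2 cytokine receptor chains. Csf2ra, the alpha chain of the GM-CSF receptor, was at 7.54, 7.38 and 7.55 in heterozygous and 8.25, 8.15 and 8.10 in homozygous embryos. Crlf2, the receptor chain for thymic stromal lymphopoietin, was at 9.02, 8.62 and 9.42 against 10.31, 10.13 and 10.38. Neither pair of groups overlapped, but neither difference passed (0.68, SE 0.10, and 1.26, SE 0.20, adjusted p = 0.21 for both). The lysosomal galactosidase Glb1 had a difference of 0.70 (SE 0.11) and the zinc finger gene Zfp451, known from SUMO ligation, one of 0.74 (SE 0.12), with the same adjusted p of 0.21. Synb, an endogenous retroviral envelope gene that fuses trophoblast cells in the placenta, was not above background in any heterozygous embryo and was above it in all 3 homozygous ones, at 5.13, 6.27 and 5.51. Its level there was at least 2.21-fold higher (adjusted p = 0.21). No wild-type array was above background either, so Synb was kept only because all 3 homozygous arrays were. That count is thus fixed by the filter, and the homozygous arrays were also the brighter ones. The potassium channel subunit gene Kcne3 had a difference of 1.18 (SE 0.21, adjusted p = 0.279).

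Among named genes with lower values, Arrdc4 had groups with little spread. It encodes an alpha-arrestin that restrains glucose uptake. It was at 9.61, 9.59 and 9.65 in heterozygous and 8.88, 8.89 and 8.81 in homozygous embryos, so the gap between groups was far larger than the spread within them. The difference of -0.75 (SE 0.09, adjusted p = 0.106) did not pass, but did so with normexp background correction (0.0149) and with a trended and robust prior (0.012). Defa31, a defensin gene, had a difference of -1.69 (SE 0.22, adjusted p = 0.148). Several further genes of this kind lay close to background. Rpp40, a subunit of RNase P, was above background in 1 of 3 heterozygous and 0 of 3 homozygous embryos. Its difference was -2.14 (SE 0.32, adjusted p = 0.193), but with most values at background the size of the fall cannot be bounded. Zhx3, a zinc finger and homeobox gene, the stem cell marker Dppa5a and the cone channel gene Cnga3 had differences of -0.80 (SE 0.11), -1.31 (SE 0.20) and -0.91 (SE 0.14), with adjusted p-values of 0.152, 0.21 and 0.21. Each of these 3 was above background in 1 of 3 homozygous embryos. Zhx3 and Dppa5a were above it in all 3 heterozygous embryos, but Cnga3 in only 1, so Cnga3 was dim in both groups. Cnga3 and Rpp40, and Fcgr1 described below, were kept for the test through the 2 wild-type arrays alone.

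Of the 20 measured targets of the hypoxia response, 19 had a positive difference and 0 passed, with a median of 0.49 against -0.06 for all probes. In 9 of the 19 that were measured in all 6 embryos, every homozygous value was above every heterozygous one, against 6.11% of all probes. Because this list and that of glycolysis were chosen with earlier results of these data known, their counts describe them and are not independent support. Vegfa, the growth factor that drives vessel formation, was at 7.66, 7.64 and 7.02 in heterozygous and 8.65, 8.67 and 9.41 in homozygous embryos. All 3 homozygous values lay above the heterozygous ones, and the difference was 1.47 (SE 0.25, 2.77-fold, adjusted p = 0.279). The mitophagy receptor Bnip3 was at 11.11, 11.19 and 11.10 against 11.95, 12.24 and 12.98, a difference of 1.26 (SE 0.24, adjusted p = 0.31). Egln1, the main prolyl hydroxylase that marks hypoxia-inducible factors for destruction and is itself a target of them, was at 8.23, 8.11 and 8.27 against 8.94, 8.73 and 9.07. Its groups did not overlap either, at a difference of 0.71 (SE 0.12, adjusted p = 0.279). The vasodilator peptide gene Adm was at 5.11, 5.81 and 5.15 against 6.80, 5.90 and 7.55, where homozygous embryo 7 came close to heterozygous embryo 10 (difference 1.39, SE 0.39, adjusted p = 0.372). The related hydroxylase Egln3 overlapped between groups (0.51, SE 0.29, adjusted p = 0.5). The list of 8 measured oxygen-sensing genes had a median of -0.03, with 4 positive and 4 negative. Ak4, a mitochondrial adenylate kinase outside this list, had a difference of 0.92 (SE 0.16, adjusted p = 0.279).

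All 18 measured genes of glucose uptake and glycolysis had a positive difference and 0 passed, with a median of 0.55. In 12 of the 17 that were measured in all 6 embryos the homozygous values lay above the heterozygous ones without overlap, against 6.11% of all probes. The glucose transporter Slc2a1 was at 8.99, 9.27 and 8.32 in heterozygous and 9.74, 9.70 and 10.16 in homozygous embryos (difference 1.0, SE 0.25, adjusted p = 0.351). Hexokinase Hk2, which traps glucose in the cell, was at 9.92, 10.22 and 9.87 against 10.84, 10.92 and 11.51. The heterozygous embryos stayed close together and below all 3 homozygous ones, a 2.13-fold difference (1.09, SE 0.20, adjusted p = 0.279). The phosphofructokinase subunit Pfkl and the aldolase Aldoc had differences of 0.67 (SE 0.15, adjusted p = 0.332) and 1.09 (SE 0.27, adjusted p = 0.351), both without overlap. By contrast, the 47 measured subunits of oxidative phosphorylation had a median of -0.07, close to that of all probes, with 9 positive and 38 negative and 0 past the threshold. Under median scaling it was -0.46, against -0.20 for all probes. The mean of this list was 0.01 to 0.07 in heterozygous and -0.08 to -0.02 in homozygous embryos, without overlap. Among these the lowest was Sdhb, an iron-sulfur subunit of succinate dehydrogenase, at 12.28, 12.18 and 12.33 against 12.03, 11.62 and 11.57 (difference -0.52, SE 0.14, adjusted p = 0.369).

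Embryo 16 had the highest mean of both lists, and embryos 2 and 7 also lay above the heterozygous embryos. The mean over the hypoxia targets, set to 0 at the mean of the 6 embryos, was -0.32, -0.23 and -0.40 in heterozygous embryos 3, 10 and 15 and 0.07, 0.14 and 0.73 in homozygous embryos 2, 7 and 16. For glycolysis it was -0.35, -0.10 and -0.43 against 0.11, 0.20 and 0.57. The groups did not overlap in either list, and wild-type embryos 11 and 13 lay with the heterozygous ones, at -0.35 and -0.43 for hypoxia and -0.36 and -0.44 for glycolysis. Without embryo 16 the median was 0.31 for hypoxia targets and 0.37 for glycolysis. The medians were 0.37 and 0.26 under median scaling and 0.51 and 0.57 under cyclic loess.

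**Figure D3:**
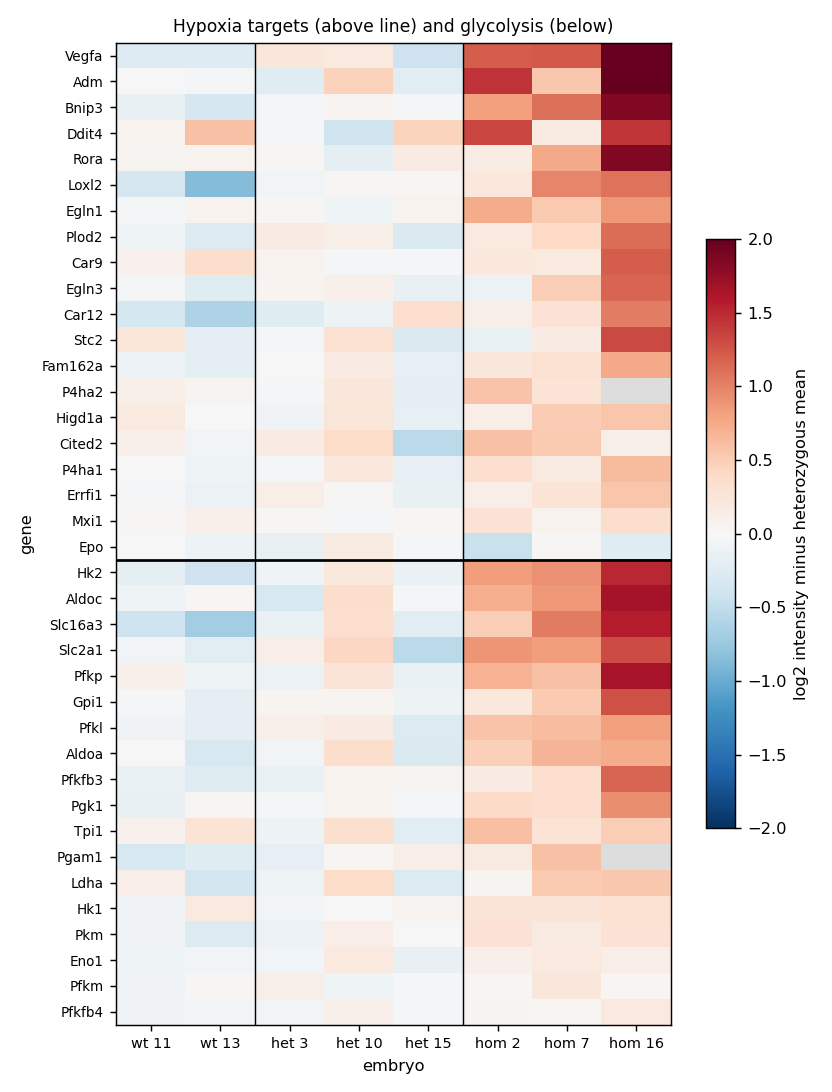
Log2 intensity minus the heterozygous mean for each measured hypoxia target (above the line) and glycolysis gene (below it) in each of the 8 embryos, with colours limited to 2 units in either direction and grey for a marked-out spot. Rows are ordered by their difference within each list, and embryo 16 has the deepest colour in most rows, for example in Vegfa, Bnip3 and Hk2.

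Genes of the integrated stress response, in which a stressed cell slows translation and turns on amino acid supply through Atf4, were positive in 19 of 22 with 0 past the threshold and a median of 0.36. Chac1, which breaks down glutathione, was not above background in any heterozygous embryo and was at 5.85, 5.37 and 8.15 in homozygous ones. Its level was at least 3.90-fold higher there, with an adjusted p of 0.377. Like Synb, Chac1 was kept for the test only because all 3 homozygous arrays were above background. The lipoprotein receptor Vldlr was at 6.90, 7.12 and 6.74 against 7.36, 7.89 and 9.0 (difference 1.16, SE 0.37, adjusted p = 0.391), while Shmt2, a serine enzyme of mitochondria, and the transcription factor Cebpb both had 0.59 (SE 0.20 and 0.16). In these genes other than Cebpb, embryo 16 was the highest of the 6. The mean of the list was -0.02 in both embryos 2 and 7 and 0.81 in embryo 16, against -0.32, -0.12 and -0.32 in embryos 3, 10 and 15, and the median without embryo 16 was 0.10. The neighbouring stress lists did not share this pattern of values. The median was -0.08 for 14 genes of the unfolded protein response, with the chaperone Creld2 at -0.38 (SE 0.15). It was -0.14 for 12 heat shock genes, with the co-chaperone Dnaja1 at -0.36 (SE 0.12), and -0.18 for 17 targets of p53. Of the p53 targets 14 were negative, and the cell death gene Pmaip1 was at 7.84, 6.87 and 8.07 in heterozygous and 6.62, 6.69 and 6.59 in homozygous embryos (difference -0.96, SE 0.30, adjusted p = 0.391). Immediate-early genes had a median of 0.01 over 18 members, with the matrix protein gene Ccn2 at 0.54 (SE 0.22).

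None of the members of the lists closest to the known work of Rbm15 passed. The m6A machinery had a median of -0.02 over 14 genes, and 3 of the 13 complete ones (measured in all 6 embryos) had non-overlapping higher values, against 6.11% of all probes. Rbm15b and the demethylase Alkbh5 (0.44, SE 0.15, adjusted p = 0.399) were among these. The median of the list was -0.27 under median scaling, against -0.20 for all probes. The reader Hnrnpc was at -0.31 (SE 0.14, adjusted p = 0.436). Alkbh5 was at 9.74, 9.54 and 9.40 in heterozygous and 9.87, 9.90 and 10.21 in homozygous embryos, a narrow gap. Nuclear mRNA export had a median of -0.04 over 22 genes, and 3 of the 20 complete ones had non-overlapping lower values, near the 12.5% of all probes. These were the cap-binding subunit Ncbp2 (-0.39, SE 0.14), Thoc1 of the THO complex (-0.27, SE 0.11) and the export adaptor Alyref (-0.25, SE 0.11). Splicing factors had a median of -0.10 over 32 genes, or -0.44 under median scaling against -0.20 for all probes, with Srsf10, an SR protein, at -0.41 (SE 0.14, adjusted p = 0.399).

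Lists of growth genes had medians between -0.14 and 0.05, and none of their members passed. The cell cycle list had 20 negative of 24, a median of -0.14 and non-overlapping lower values in 5 of 24, against 12.5% of all probes. Among them were the nucleotide enzymes Rrm2 (-0.35, SE 0.14) and Tyms (-0.24, SE 0.10), the replication helicase subunit Mcm5 (-0.28, SE 0.12) and the mitotic cyclin Ccnb1 (-0.27, SE 0.12). The median of the list was -0.04 without embryo 16 and -0.46 under median scaling, where that of all probes was -0.20. Myc and ribosome biogenesis genes had a median of 0.03 over 21, with Mycn at 0.67 (SE 0.19) and the RNA polymerase I subunit Polr1b at 0.57 (SE 0.18), neither overlapping between groups. The 58 ribosomal protein genes had a median of 0.05, with 39 positive, against 40% of all probes. Of the 48 complete ones, 10 had non-overlapping higher and 1 non-overlapping lower values, against 6.11% and 12.5% of all probes. Under median scaling their median was -0.30, against -0.20 for all probes, so they have no settled direction. Cholesterol synthesis had a median of 0.03 over 19 genes, with the isomerase Idi1 at -0.28 (SE 0.12).

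**Figure D4:**
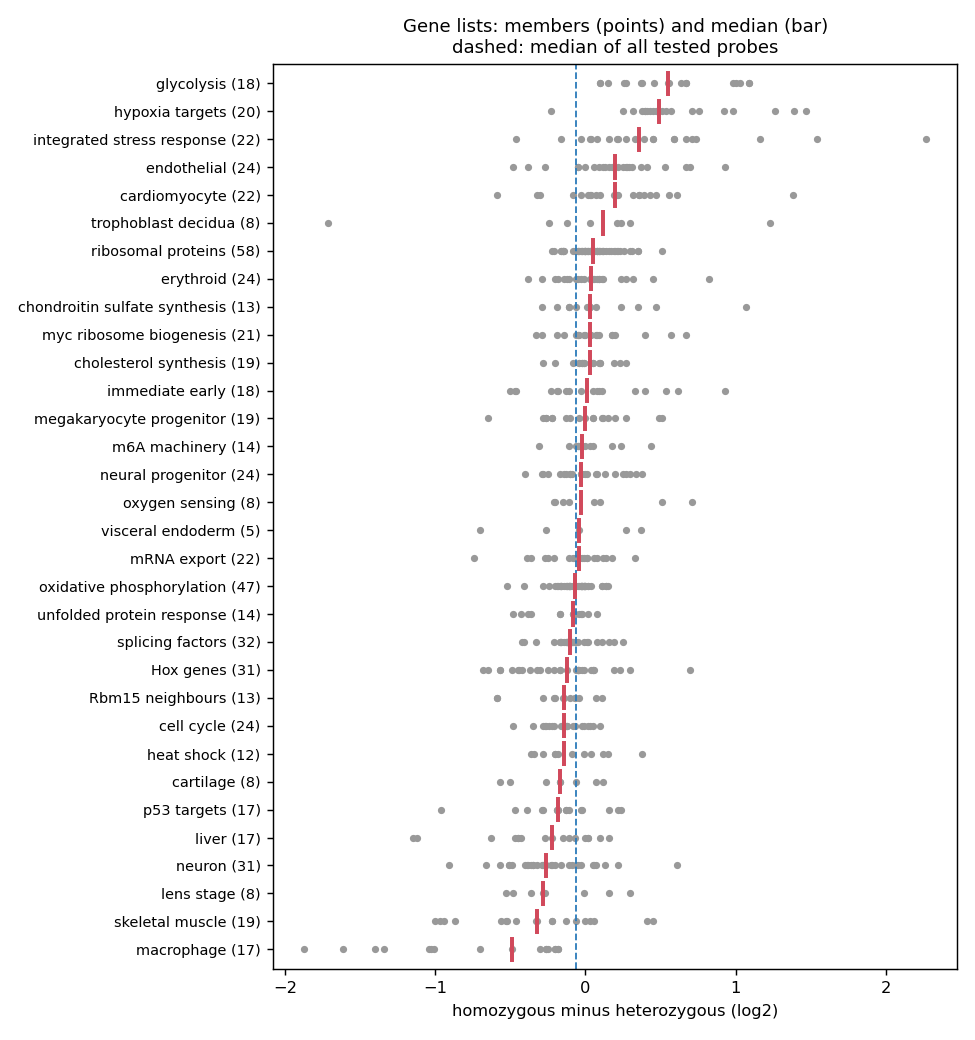
Homozygous minus heterozygous difference (log2) of every measured member of each gene list other than the Y-linked one (grey points), with the list's median (red bar), its number of measured members in brackets and the median of all tested probes (dashed line, -0.06). Glycolysis (0.55) and hypoxia targets (0.49) lie at the top and macrophage genes (-0.49) at the bottom, and no member of any list passed the adjusted threshold.

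Markers of blood vessels were positive in 19 of 24, with a median of 0.20 and 0 past the threshold. The values did not overlap in the higher direction for 6 of the 23 complete members, against 6.11% of all probes. The von Willebrand factor gene Vwf was at 7.68, 7.73 and 7.97 in heterozygous and 8.43, 8.52 and 9.21 in homozygous embryos (difference 0.93, SE 0.23, adjusted p = 0.351). The endothelial transcription factor Sox7 (0.67, SE 0.20) and the surface protein Cd93 (0.53, SE 0.16) had the next smallest p with higher values. The angiopoietin gene Angpt2, a ligand of the Tek receptor, went the other way at -0.48 (SE 0.16, adjusted p = 0.398). The mean of the list was -0.07, 0.03 and 0.33 in homozygous embryos 2, 7 and 16 against -0.19, 0.01 and -0.11 in heterozygous embryos 3, 10 and 15, so the groups overlapped, and the median was 0.07 without embryo 16. Markers of heart muscle were positive in 17 of 22 with a median of 0.20. Under median scaling it was -0.15, against -0.20 for all probes. The phospholamban gene Pln was at 0.47 (SE 0.18), the stress-responsive Ankrd1 at 1.38 (SE 0.48) and the sarcolipin gene Sln at -0.59 (SE 0.26), all with overlapping groups.

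Blood lineages, in which Rbm15 has been studied in the adult, had medians close to that of all probes, and none of their members passed. The erythroid list had 13 positive and 11 negative of 24 and a median of 0.04, with the haematopoietic transcription factor Nfe2 at 0.45 (SE 0.15, adjusted p = 0.399). The embryonic globin gene Hbb-y, near the top of the scale, was at 15.03 ± 0.25 (SD, n = 3) in the heterozygous group and 15.07 ± 0.13 (n = 3) in the homozygous group, a difference smaller than either spread. Megakaryocyte and progenitor genes had a median of 0.00 over 19, with no non-overlapping higher and 4 non-overlapping lower members of 18, against 6.11% and 12.5% of all probes. Among them were Hoxa9 (-0.65, SE 0.20), Gata2 (-0.28, SE 0.13) and Runx1 (-0.26, SE 0.11), with adjusted p-values between 0.391 and 0.439. Gata2 and Runx1 are transcription factors of stem and progenitor cells. Hoxa9 is counted again with the Hox genes below, and a whole embryo does not show which tissue its value comes from.

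Macrophage markers had a negative difference in all 17 measured, with a median of -0.49 and 0 past the threshold. Fcgr1, a receptor for IgG, was at 5.38, 4.68 and 5.48 in heterozygous and 3.75, 3.83 and 3.77 in homozygous embryos, above background in 2 and 1 of 3. The groups did not overlap (difference -1.40, SE 0.21, adjusted p = 0.193). Fcgr1 was kept for this test only because both wild-type arrays were above background. The lysozyme gene Lyz2 was at 6.92, 5.96 and 7.79 against 5.92, 6.01 and 5.65, so heterozygous embryo 10 lay among the homozygous ones. Spi1, the transcription factor of the myeloid lineage, was at 8.32, 8.30 and 8.36 against 8.10, 8.20 and 7.91 (difference -0.25, SE 0.11, adjusted p = 0.428). Only 2 of the 15 complete members did not overlap, near the 12.5% of all probes. The mean of the list was 0.70, -0.68 and 1.17 in heterozygous embryos 3, 10 and 15 and -0.31, -0.34 and -0.54 in homozygous embryos 2, 7 and 16, with 0.85 and 0.96 in the wild-type embryos. Heterozygous embryo 10 was thus the lowest of all 8, and the median was -0.96 without it and -0.24 without embryo 15. Fcgr1 passed without embryo 10 (difference -1.65, adjusted p = 0.012).

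Markers of liver, skeletal muscle and neurons had medians below that of all probes, but none of their members passed, and in each list the mean of heterozygous embryo 10 lay below that of at least 1 homozygous embryo. Liver genes had 13 negative of 17, against 60% of all probes, and a median of -0.22, which was -0.07 without heterozygous embryo 15 and -0.38 without embryo 10. The thyroid hormone carrier Ttr was at 9.97, 9.94 and 10.59 in heterozygous and 9.24, 9.23 and 8.67 in homozygous embryos (difference -1.12, SE 0.24, adjusted p = 0.332), without overlap. The albumin gene Alb was at 7.61, 6.23 and 8.14 against 6.71, 6.45 and 5.40, with overlap (-1.15, SE 0.53, adjusted p = 0.439), and the fetal albumin Afp had -0.63 (SE 0.32). Skeletal muscle genes had 15 negative of 19 and a median of -0.32, or -0.16 without heterozygous embryo 3 and -0.21 without embryo 15. Values did not overlap in the lower direction for 5 of 18, against 12.5% of all probes. The adhesion protein of muscle precursors Cdh15 was at 6.98, 6.44 and 7.00 against 6.29, 5.95 and 5.26 (difference -0.97, SE 0.27, adjusted p = 0.369). The troponin gene Tnnt3 (-0.52, SE 0.14), the myosin gene Myh8 (-0.53, SE 0.16) and the fusion protein gene Mymk (-0.46, SE 0.13) were likewise without overlap. Neuron genes had 25 negative of 31 and a median of -0.26, but no member had non-overlapping lower values. The glutamate transporter Slc17a6 was at 7.36, 6.13 and 7.99 against 6.64, 6.38 and 5.73. Here too embryo 10 lay below homozygous embryos 2 and 7, and the transcription factor Onecut1 was at 0.61 (SE 0.19) with all homozygous values above. The neuron mean was 0.26, -0.39 and 0.50 in heterozygous and 0.07, -0.07 and -0.37 in homozygous embryos, and the median ran from -0.09 without embryo 15 to -0.48 without embryo 10.

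Other tissue and stage markers gave smaller lists. Neural progenitor genes had a median of -0.03 over 24. Cartilage genes had -0.17 over 8, with the collagen Col9a3 at -0.50 (SE 0.22), and lens crystallins, which mark stage, had -0.28 over 8, with Crygc at -0.48 (SE 0.29) and -0.09 for the list without embryo 16. The placental hormone gene Prl3b1 was at 7.64 and 6.98 in heterozygous embryos 3 and 10 and at 5.57, 6.08 and 5.14 in homozygous ones, its spot in embryo 15 being marked out (difference -1.71, SE 0.34, adjusted p = 0.332). The trophoblast and decidua list had a median of 0.12 over 8. Visceral endoderm had -0.04 over 5, with the homeobox gene Rhox5 at -0.70 (SE 0.25). How far stage, tissue share or array brightness enters these lists was not tested.

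**Figure D5:**
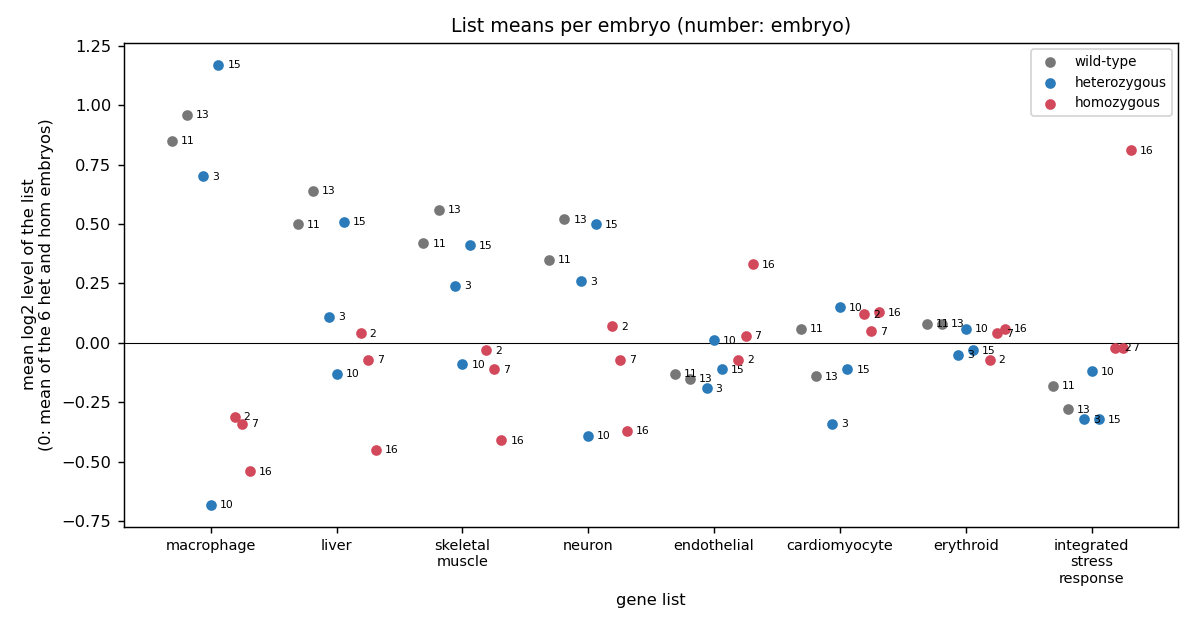
Mean log2 level of 8 gene lists in each embryo, set to 0 at the mean of the 6 heterozygous and homozygous embryos, with embryo numbers beside the points. Macrophage genes spread most within the heterozygous group, from -0.68 in embryo 10 to 1.17 in embryo 15, and homozygous embryo 16 stands alone at 0.81 for the integrated stress response.

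Hox genes, which set position along the body axis, were negative in 23 of 31 measured with a median of -0.12 and 0 past the threshold. The 3 members with non-overlapping lower values, out of 30 complete ones, all belonged to paralog group 9, which acts in the trunk and limbs. Hoxc9 was at 9.57, 9.44 and 9.33 in heterozygous and 8.67, 9.10 and 8.84 in homozygous embryos (difference -0.57, SE 0.15, adjusted p = 0.368). Hoxa9 was at 7.35, 6.97 and 6.83 against 6.34, 6.76 and 6.10, and Hoxd9 at 6.55, 6.32 and 6.26 against 5.68, 6.0 and 5.40 (differences -0.65, SE 0.20, and -0.68, SE 0.18). The gaps between groups were narrow, and the fourth gene of the group, Hoxb9, named after its value was seen, was at 0.06. The more anterior Hoxd3 was at 0.70 (SE 0.27, adjusted p = 0.414), with homozygous embryo 7 among the heterozygous values. The share of non-overlapping lower members, 3 of 30, was below the 12.5% of all probes.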

How the data were processed

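Per the labels' protocols, RNA of 8 single embryos was labelled by the CodeLink procedure and read on one-colour arrays. Per the file headers, the authors deposited a background-corrected intensity for each spot, and its values equal the mean of the spot less the median of the background around it. The deposited value table holds a scaled intensity, which differed by at most 5e-08 from the scaled value given with each array. The scale factor estimated for each array lay close to its median intensity, as with 58.04 against 57.63 in heterozygous embryo 3. Whether every spot of an array was divided by the same factor was not tested. The sources used here do not give the scanner software or its settings.

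Control spots were left out, and spots with a mark for contamination, irregular shape or masking were treated as missing. Intensities were quantile normalized over the 8 arrays, given a floor at their 5th percentile (4.50, or 2.17 on the log2 scale) and turned to log2. A probe was kept if at least 1 genotype had it above background on every array. Of these 23389 probes 1 gave no p-value. limma 3.58.1 in R 4.3.3 fitted 3 genotype means to the 8 arrays with lmFit and eBayes, two-sided, with Benjamini-Hochberg adjustment over all tested probes and a threshold of 0.05. The fit was tested on simulated data. Where every array of 1 group was at background and every array of the other group above it, a fold is a lower bound. The sample labels used here do not group the arrays into batches, so no batch term could be fitted. The number of arrays limits the precision.

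RefSeq accessions in a gene table of GRCm38.p6 gave 1 symbol to 14763 gene probes (13971 genes), and 20204 stayed unnamed. In lists, a gene was represented by its probe of highest mean. The members and lists were chosen with earlier results of these data known, and lists are described by counts and medians without a test. Named were Rbm15b, the genes past the threshold, the genes with the smallest p until 10 per direction were filled, up to 4 unnamed probes past the threshold, up to 4 members of each list with the smallest p, and up to 3 with the highest mean of the marker lists. Exceptions are marked where they stand. The alternatives changed the normalization, background correction, floor, filter, marked spots, samples in the fit, spread estimate and covariate, and left out embryos.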

Additional observations from a re-analysis of the deposited data

How the results depend on the processing

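Across 23 alternatives, the count of 5 probes past the threshold was 10 under median scaling (3 higher), 9 under cyclic loess (3 higher), 12 in the deposited value table (4 higher), 11 with normexp at an offset of 50 (3 higher), 13 with array weights (5 higher) and 16 with a trended and robust prior (6 higher). With 1 embryo left out it ran from 4 to 58. It was 58 without homozygous embryo 7 (44 higher), 10 without heterozygous embryo 10 (3 higher) and 9 without homozygous embryo 16 (0 higher), and 33 with embryos 10 and 16 both left out (12 higher). Of the 5, between 3 and 5 passed in each alternative. The 4088 probes without overlap became 10037 with embryos 10 and 16 both left out, and 4152 to 7192 with 1 embryo left out. The low end came from leaving out a wild-type embryo, and without 1 of the 6 compared it was 5799 or more, where fewer values per group make separation easier. They numbered 4740 under median scaling, 4999 in the deposited value table and 3879 under cyclic loess. Of 89 genes or probes followed, 88 kept their sign throughout. The exception was Rbm15b, at -0.04 with arrays scaled by their medians and -0.08 with the deposited values. The causes were not tested. Probes not above background in any embryo of a group, such as Rpp40, have no measured level there. No paired analysis by litter was possible because the sources used here do not give the litters.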
